A study of Mus musculus with 13 samples.

Results

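The 10 heat shock protein genes Hspa1a, Hspa1b, Hspa1l, Hspa8, Hspa5, Hsp90aa1, Hsp90ab1, Hsph1, Dnajb1 and Hspd1 were taken by symbol from the GENCODE M1 annotation of mm9, out of 22367 protein-coding genes, and all 10 were found. They were examined in the murine hepatoma line Hepa 1-6, profiled by ChIP-seq, which sequences the chromatin that an antibody holds and calls stretches rich in reads as regions. KAP1 and the histone marks H3K9me3, H3K27ac and H3K4me1 came from cells in standard culture. The RNA polymerases II (PolII) and III (PolIII) came from cells fixed 5 days after lentiviral transduction, either with a Kap1-targeting hairpin (Kap1 KD) or with a control vector, which the labels describe as a control hairpin and the methods as empty. Each of these 8 lists is 1 library, so no value has a replicate error and no test could be made between conditions. No heat shock treatment is named for these samples, and both transduced groups shared the vector backbone and the selection that followed. All groups were a single established tumour line, not liver tissue.

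Heat shock proteins are molecular chaperones, which bind unfolded or partly folded proteins and help them to fold, to be held soluble or to be degraded. HSP70 proteins (the Hspa genes) work in a cycle of ATP hydrolysis that J-domain proteins such as Dnajb1 start and that nucleotide exchange factors such as Hsph1 close. HSP90 proteins finish the folding of kinases and receptors, and the chaperonin Hspd1 folds proteins inside mitochondria. Under heat or other stress, heat shock factor 1 binds heat shock elements, which are inverted repeats of a short GAA unit, and strongly raises transcription of Hspa1a and Hspa1b. Hspa8, Hspa5, Hsp90ab1 and Hspd1 are made at high level in unstressed cells. Hsp90aa1, Hsph1 and Dnajb1 are made in unstressed cells and are raised further by heat, and Hspa1l is known mainly from testis. KAP1 (gene Trim28) is a corepressor that zinc finger proteins bring to DNA, where it can recruit the enzyme that writes H3K9me3, a mark of silenced chromatin. H3K27ac and H3K4me1 are marks of active promoters and enhancers.

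The bases before the gene starts were read from the mm9 assembly, because the lists separate the members at this place. The lines below show the 250 bases upstream of the annotated 5′ end of Hspa1a (chr17:35109070-35109319, minus strand), Hspa1b (chr17:35096184-35096433, minus strand), Hspa8 (chr9:40608817-40609066, plus strand), Hsp90ab1 (chr17:45710221-45710470, minus strand) and Hsph1 (chr5:150438952-150439201, minus strand). Each reads 5′ to 3′ in the direction of transcription, and capitals mark every match to the motifs searched on both strands. One motif was a heat shock element of 2 units, GAANNTTC or its other order TTCNNGAA, searched also with 3 units. The others were the CCAAT box, then the GC box, with letters GGGCGG. The TATA box was searched as TATAAA.
Hspa1a: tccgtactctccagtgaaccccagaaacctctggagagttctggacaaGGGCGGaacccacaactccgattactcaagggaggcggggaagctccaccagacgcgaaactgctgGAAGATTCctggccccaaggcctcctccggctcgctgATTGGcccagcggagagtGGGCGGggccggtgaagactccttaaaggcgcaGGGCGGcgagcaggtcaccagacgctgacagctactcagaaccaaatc
Hspa1b: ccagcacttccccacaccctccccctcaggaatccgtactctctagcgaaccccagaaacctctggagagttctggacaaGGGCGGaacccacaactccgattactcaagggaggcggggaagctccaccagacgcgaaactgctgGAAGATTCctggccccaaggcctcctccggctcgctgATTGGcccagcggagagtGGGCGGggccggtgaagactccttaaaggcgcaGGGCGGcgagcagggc
Hspa8: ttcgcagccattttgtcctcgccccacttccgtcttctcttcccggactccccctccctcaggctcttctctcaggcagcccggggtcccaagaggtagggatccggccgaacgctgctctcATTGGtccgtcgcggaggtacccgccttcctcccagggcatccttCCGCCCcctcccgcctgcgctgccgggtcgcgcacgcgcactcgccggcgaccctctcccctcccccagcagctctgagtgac
Hsp90ab1: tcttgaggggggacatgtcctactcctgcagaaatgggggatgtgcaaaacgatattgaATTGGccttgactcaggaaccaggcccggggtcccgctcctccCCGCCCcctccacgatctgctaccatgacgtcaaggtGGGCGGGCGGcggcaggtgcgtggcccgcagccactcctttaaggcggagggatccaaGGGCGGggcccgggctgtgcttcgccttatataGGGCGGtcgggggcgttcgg
Hsph1: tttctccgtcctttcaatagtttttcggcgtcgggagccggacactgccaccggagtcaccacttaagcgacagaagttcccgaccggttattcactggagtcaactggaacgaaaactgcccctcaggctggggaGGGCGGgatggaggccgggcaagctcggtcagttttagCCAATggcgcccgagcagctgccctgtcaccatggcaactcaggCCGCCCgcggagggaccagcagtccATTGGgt

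The windows of Hspa1a and Hspa1b are near copies of each other. Of 218 bases that aligned, 215 (98.6%) were identical, against 54.3% between Hspa1a and Hspa1l and 49.4% between Hspa1a and Hspa8. Both copies held the same heat shock element, GAAGATTC, followed by a CCAAT box and GC boxes. It began 136 bases before the annotated 5′ end of Hspa1a and 104 bases before that of Hspa1b, so the annotated ends of the 2 copies are not at the same base of the shared sequence. No other member held a 2-unit element in this window, and 12.2% of the 22362 windows of all protein-coding genes did. The Hsp90aa1 window lies at an annotated 5′ end without a PolII region in either condition. The starts of its other transcripts were not searched. The 3-unit element, which contains the 2-unit one, was in no member's window and in 0.389% of all windows. The CCAAT box was in 8 of the 10 windows, all but those of Hsp90aa1 and Hspd1, against 35.0% of all genes. The GC box was also in 8 of 10, all but Hspa1l and Hsp90aa1, against 39.6% of all genes, and at Hsp90ab1 a pair of its matches overlapped each other. The TATA box in its one searched form, TATAAA, was in none of the 10, against 12.3% of all genes. Other forms, such as the tatata in the Hsp90ab1 window, were not searched. A match is a run of letters and not a measured binding site.

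The 250-base windows also differed in base composition. GC content was between 60.8% (Hsph1) and 70.8% (Hspd1) in 8 members, against a median of 54.0% over all genes. It was lower at Hspa1l (49.6%) and at the annotated start of Hsp90aa1 (47.2%, with 2 CpG dinucleotides).

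At the promoters, the 501 bp centred on the annotated 5′ end, the 10 genes fell into 3 patterns. Hspa1a, Hspa1b and Hspa1l lay under KAP1 and H3K9me3, with no region called for an active mark or a polymerase. Hsp90ab1, Hsph1 and Hspd1 lay under KAP1 with H3K27ac and PolII and without H3K9me3. Hspa8, Hspa5, Hsp90aa1 and Dnajb1 had no KAP1 at the promoter, and 3 of these 4, all but Hsp90aa1, had PolII there. A missing call does not show that a polymerase was absent, since the depth of the libraries is unknown. For the heat shock protein genes it discusses, the study itself describes stalled and inactive PolII at the promoters.

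A KAP1 region overlapped 6 of the 10 promoters, against 15.7% of all protein-coding promoters. An H3K9me3 region overlapped 3 of 10, the Hspa1 genes, against 5.24%. For H3K27ac the count was 4 of 10 (Hsp90aa1, Hsp90ab1, Hsph1 and Hspd1) against 20.0%, and for H3K4me1 it was 1 of 10 (Hsp90aa1) against 11.9%. PolII was over 6 of 10 promoters in the control, against 13.1%, and over the same 6 under Kap1 KD (Hspa8, Hspa5, Hsp90ab1, Hsph1, Dnajb1 and Hspd1), against 23.3%. PolIII was over no member's promoter in either condition, and over 0.344% of all promoters in the control and 0.134% under Kap1 KD. KAP1 and H3K9me3 together were at 3 of 10 members and at 1.52% of all promoters, and the same pair with none of the 6 other lists was at those 3 members and at 1.44% of all promoters. The Hspa1l call is the edge of the Hspa1a regions, and Hspa1a and Hspa1b are near copies, so these 3 are not separate cases. Among the 3522 promoters with KAP1, 9.65% also had H3K9me3, while among the 6 members with KAP1 it was 3. Among promoters with PolII in the control, 94.4% had it under Kap1 KD, and all 6 members did. With the Kap1 KD list limited to its 5015 highest-scoring peaks, as many as the control list holds, 5 members had PolII, Dnajb1 (rank 7432) being the one left out, against 12.3% of all promoters.

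**Figure D1:**
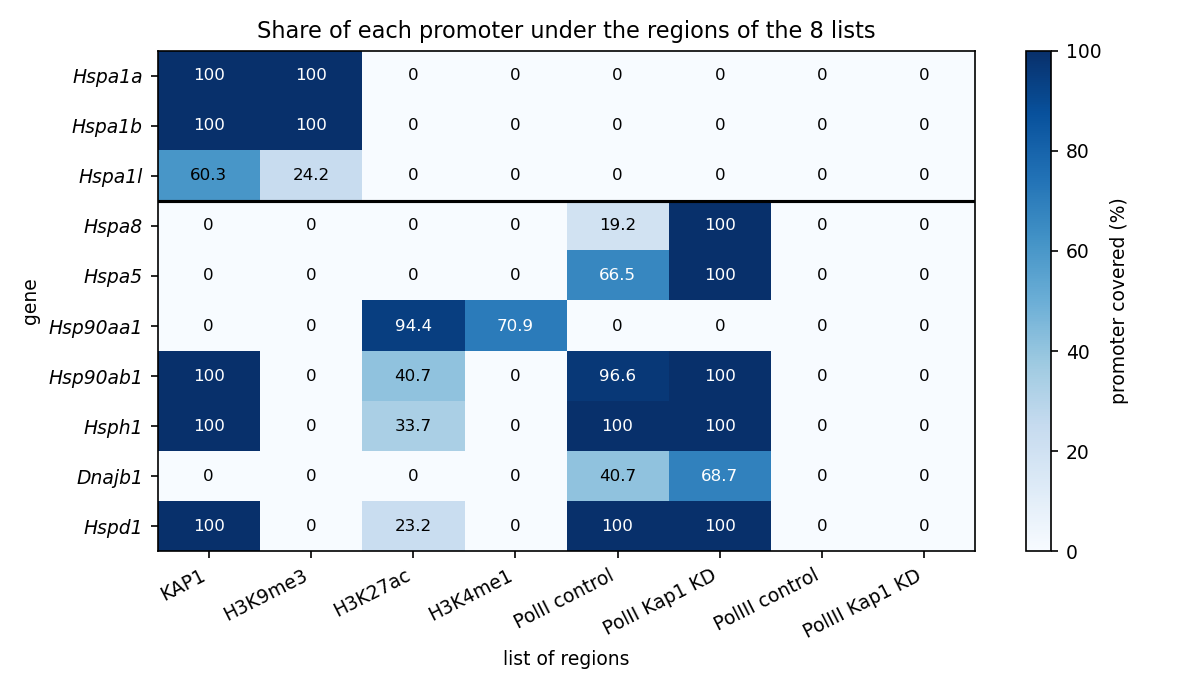
Share of each promoter (501 bp around the annotated 5′ end, in percent) that lay under the regions of each of the 8 lists, 1 library each, with genes in rows and lists in columns. The 3 Hspa1 genes above the line are filled only in the KAP1 and H3K9me3 columns, and the 7 other genes have 0 in the H3K9me3 column.

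The 2 most alike members are Hspa1a and Hspa1b, which encode the main stress-inducible HSP70. Hspa1a (ENSMUSG00000091971.1, chr17:35106144-35109069, minus strand) and Hspa1b (ENSMUSG00000090877.2, chr17:35093381-35096183, minus strand) are each made without a spliced coding region. Their coding sequences with the stop codon differed at 8 of 1926 aligned bases, an identity of 99.6%. Each gene lay under its own KAP1 peak. The peak over Hspa1a spanned chr17:35106756-35109699 (2944 bp), from 630 bp upstream of the 5′ end to 2313 bp into the gene. Its score of 3100 ranked 9 of 12470 KAP1 peaks, tied with all 152 peaks of that score. The peak over Hspa1b spanned chr17:35093909-35096716 (2808 bp), from 533 bp upstream to 2274 bp downstream of the 5′ end, with a score of 2936.55 at rank 170. Scores rank peaks within a list only.

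H3K9me3 followed the same outline at both genes. Its regions were chr17:35106897-35109518 (2622 bp) over Hspa1a and chr17:35093972-35096931 (2960 bp) over Hspa1b, at least as wide as 96.7% and 97.3% of the 66242 H3K9me3 regions. They lay over 89.1% of the KAP1 peak at Hspa1a and 97.8% of that at Hspa1b. Both promoters and both coding sequences were covered over 100% of their length by KAP1 and by H3K9me3. Over the whole gene the share under KAP1 was 79.1% at Hspa1a and 81.2% at Hspa1b, and the share under H3K9me3 was 74.3% and 78.9%. The part left uncovered was the 3′ end of each gene. No H3K27ac, H3K4me1, PolII or PolIII region touched either gene.

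Hspa1l (ENSMUSG00000007033.3, chr17:35109648-35116229, plus strand), the HSP70 gene known from testis, begins 579 bp upstream of Hspa1a on the other strand. Its coding sequence was 83.4% identical to that of Hspa1a. Its promoter was covered over 60.3% by KAP1 and over 24.2% by H3K9me3, and all of this was the edge of the Hspa1a regions: the KAP1 peak reached 51 bp past the Hspa1l 5′ end and the H3K9me3 region stopped 130 bp before it. A separate KAP1 peak lay inside the gene, at chr17:35113889-35115168 (1280 bp, score 212.66, rank 2727), over the coding exon, with an H3K9me3 region at chr17:35113623-35115002 (1380 bp) over 87.0% of it. These covered 64.3% (KAP1) and 55.7% (H3K9me3) of the Hspa1l coding sequence. A further H3K9me3 region of 365 bp lay in the intron without KAP1. No active mark or polymerase region touched the gene.

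The near identity of the copies limits how reads can be placed between them. Of the words of 100 bases, the read length, that begin in Hspa1a, 49.3% occurred more than once in the mm9 assembly, and 1350 of its 2827 words were found unchanged in Hspa1b. At Hspa1b the share was 49.9% and at Hspa1l 2.24%. Within the KAP1 peaks it was 52.6% at Hspa1a, 53.6% at Hspa1b and 11.3% inside Hspa1l, and over the promoters it was 39.8%, 31.8% and 0%. Allowing 2 mismatches, 70.1% of the words of Hspa1a matched Hspa1b and 4.53% of the words of Hspa1l matched Hspa1a. How reads with several matches were placed is not given in the sources used here, so the signals of Hspa1a and Hspa1b cannot be told apart over the shared words. At the other members with KAP1 over the promoter (Hsp90ab1, Hsph1 and Hspd1), 0% of the words in the promoter or in the KAP1 peak were repeated.

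**Figure D2:**
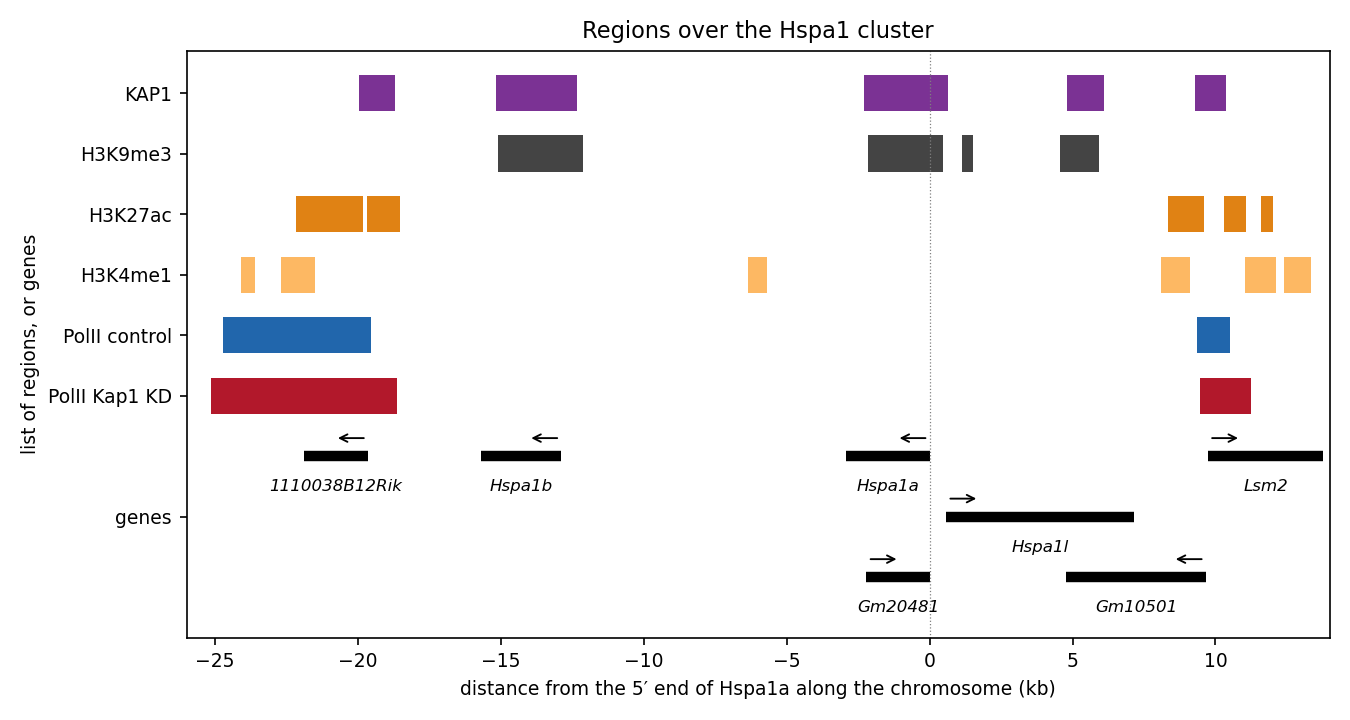
Map of the Hspa1 cluster, with distance from the Hspa1a 5′ end along the chromosome in kb on the horizontal axis, the regions of 6 lists as bars and genes as black lines with an arrow in the direction of transcription. The 3 KAP1 peaks over the Hspa1 genes coincide with H3K9me3, and the KAP1 peaks at both edges coincide with H3K27ac and PolII.

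The KAP1 and H3K9me3 regions of the cluster were bordered on both sides by active promoters that also carried KAP1. On the Hspa1b side, a KAP1 peak at chr17:35089105-35090365 (score 115.7, rank 5422) lay at the start of the noncoding gene 1110038B12Rik, and 88.7% of it was under H3K27ac and 0% under H3K9me3. On the Hspa1l side, a KAP1 peak at chr17:35118371-35119422 (score 65.11, rank 9831) lay at Lsm2, which encodes a subunit of the U6 RNA complex, and at the divergent noncoding gene Gm10501. The noncoding genes 1110038B12Rik and Gm10501 were named after their values were seen. It was 33.7% under H3K27ac and 0% under H3K9me3. The control PolII list had a peak at each of these borders and none between them over 28.9 kb. Under Kap1 KD the gap between the bordering peaks was 28.1 kb. The bordering PolII peaks carried consecutive numbers in both lists, so no numbered call between them was removed before deposit. The nearest PolII region to the 5′ end was 9360 bp away at Hspa1a, 6680 bp at Hspa1b and 8781 bp at Hspa1l in the control. Under Kap1 KD these distances were 9447, 5740 and 8868 bp. The one active mark between the genes was an H3K4me1 region of 652 bp, chr17:35102712-35103363, which lay 5706 bp downstream of the Hspa1a 5′ end and carried no other list. Gm20481, a gene model annotated as protein-coding, overlaps Hspa1a on the other strand, and ChIP-seq cannot tell the strands apart.

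Genes with a pattern like that of Hspa1a and Hspa1b were few. At least 0.5 of the gene lay under KAP1 and at least 0.5 under H3K9me3 at 74 protein-coding genes (0.331%), and 53 of the 74 had the pair over the promoter with none of the 6 other lists. The 5 genes nearest to the mean of Hspa1a and Hspa1b, by the summed absolute difference over the 16 covered shares (promoter and gene in 8 lists), were Nkx6-2 (0.212), Hic1 (0.233), Cited4 (0.246), Gm5805 (0.348) and Hmx2 (0.427). Nkx6-2 and Hmx2 encode homeobox factors, Hic1 a zinc finger repressor and Cited4 a transcriptional coactivator. The KAP1 peak of Nkx6-2 also had the tied score of 3100. By the same measure, 411 genes were nearer than Hspa1l (2.26), and between 20289 and 22271 genes were nearer than each of the 7 other heat shock genes.

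The cytosolic HSP70 made in unstressed cells, Hspa8 (ENSMUSG00000015656.10, chr9:40609067-40613283, plus strand), showed the opposite picture. The nearest KAP1 peak was 636892 bp from its 5′ end, and 93.3% of genes had one at or within that distance. The nearest H3K9me3 region was 303607 bp away, and 96.4% of genes had one at or within that distance. PolII covered 96.3% of the gene in the control, in a peak of 7363 bp that began 155 bp inside the gene and ran past its 3′ end. Under Kap1 KD the peak was 9116 bp wide, began 1282 bp upstream and covered 100%. These peaks ranked 93 of 5015 and 75 of 12862 by score in their lists. H3K27ac flanked the start, with an edge 575 bp upstream and a region of 156 bp inside the gene. Hspa8 shared no word of 100 bases with Hspa1a, the closest pair differing at 13 bases, although 23.6% of its own words were repeated elsewhere in the genome and none of those of its promoter were.

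Hspa5 (ENSMUSG00000026864.7, chr2:34627490-34632051, plus strand) encodes the HSP70 of the endoplasmic reticulum, BiP. It also had no KAP1 or H3K9me3 within 10 kb, the nearest being 29439 and 21856 bp from its 5′ end. The control PolII peak was 8056 bp wide and covered 100% of the gene. Under Kap1 KD, 2 peaks of 3557 and 3806 bp covered 82.2%. H3K27ac edges lay 561 bp upstream and 806 bp downstream of the 5′ end, and H3K4me1 covered 81.9% of the gene in a region of 4134 bp.

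The 2 cytosolic HSP90 genes differed from each other. Hsp90ab1 (ENSMUSG00000023944.8, chr17:45704724-45710220, minus strand), the constitutive form, had a KAP1 peak of 2287 bp centred on its start, from 1154 bp upstream to 1132 bp downstream, with a score of 212.22 at rank 2736. No H3K9me3 was nearer than 72507 bp. PolII covered 100% of the gene in both conditions, in peaks of 8285 bp (control, rank 82) and 11033 bp (Kap1 KD, rank 60). A pair of H3K27ac regions covered 40.7% of the promoter, one on each side of the 5′ end.

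Hsp90aa1 (ENSMUSG00000021270.7, chr12:111928815-111940938, minus strand), the heat-inducible form, had no KAP1 within 110670 bp. Its annotated 5′ end, which belongs to the transcript Hsp90aa1-006, was covered over 94.4% by H3K27ac and 70.9% by H3K4me1 and had no PolII in either condition. The control PolII peak (661 bp, rank 2918) lay 6376 to 7036 bp downstream, inside the annotated gene, and the Kap1 KD peak over the same place was 1312 bp wide. The control peak and an H3K27ac region of 202 bp were 3 bases apart. With the start of any annotated transcript in place of the gene's 5′ end, PolII was at 7 of 10 members in both conditions, Hsp90aa1 being the one added, against 14.6% of all genes in the control and 25.5% under Kap1 KD by the same rule.

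The co-chaperones Hsph1 and Dnajb1 act on HSP70. At Hsph1 (ENSMUSG00000029657.8, chr5:150416862-150438951, minus strand), which encodes HSP110, a KAP1 peak of 2610 bp (score 122.02, rank 5126) lay over the start with PolII over 100% of the promoter in both conditions. PolII was at the start and at the 3′ end of the gene and not between, and it covered 7.80% of the gene in the control and 7.43% under Kap1 KD. H3K4me1 covered 70.3% of the gene, including a region of 7529 bp at least as wide as 99.7% of the list. At Dnajb1 (ENSMUSG00000005483.8, chr8:86132074-86135801, plus strand) the nearest KAP1 peak was 5717 bp upstream. Its PolII peak was among the lowest of the control list, with a width of 204 bp and a rank of 4736 of 5015. Under Kap1 KD it was 733 bp wide at rank 7432 of 12862.

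Hspd1 (ENSMUSG00000025980.8, chr1:55134679-55145087, minus strand), the mitochondrial chaperonin, starts head to head with its partner Hspe1, a gene named here after its values were seen, so 169 of the 250 bases before its 5′ end are annotated exon. A KAP1 peak of 1105 bp (score 246.47, rank 2327) covered the shared promoter, with H3K27ac on both sides. PolII covered 84.8% of Hspd1 in the control, in 2 peaks, and 100% under Kap1 KD, in a peak of 16314 bp that also ran over the start of Hspe1 and was at least as wide as 99.8% of the list. The one H3K9me3 region, of 123 bp, and the one PolIII peak, of 2012 bp in the control (rank 670 of 2772), lay over the 3′ end, 10284 and 8952 bp from the 5′ end. Of the 24 words of that H3K9me3 region 87.5% were repeated in the genome. Of the control PolIII peaks, 89.5% were on chromosomes 1 to 4, and Hspd1 is on chromosome 1. The part of this uneven spread in the PolIII call was not tested.

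**Figure D3:**
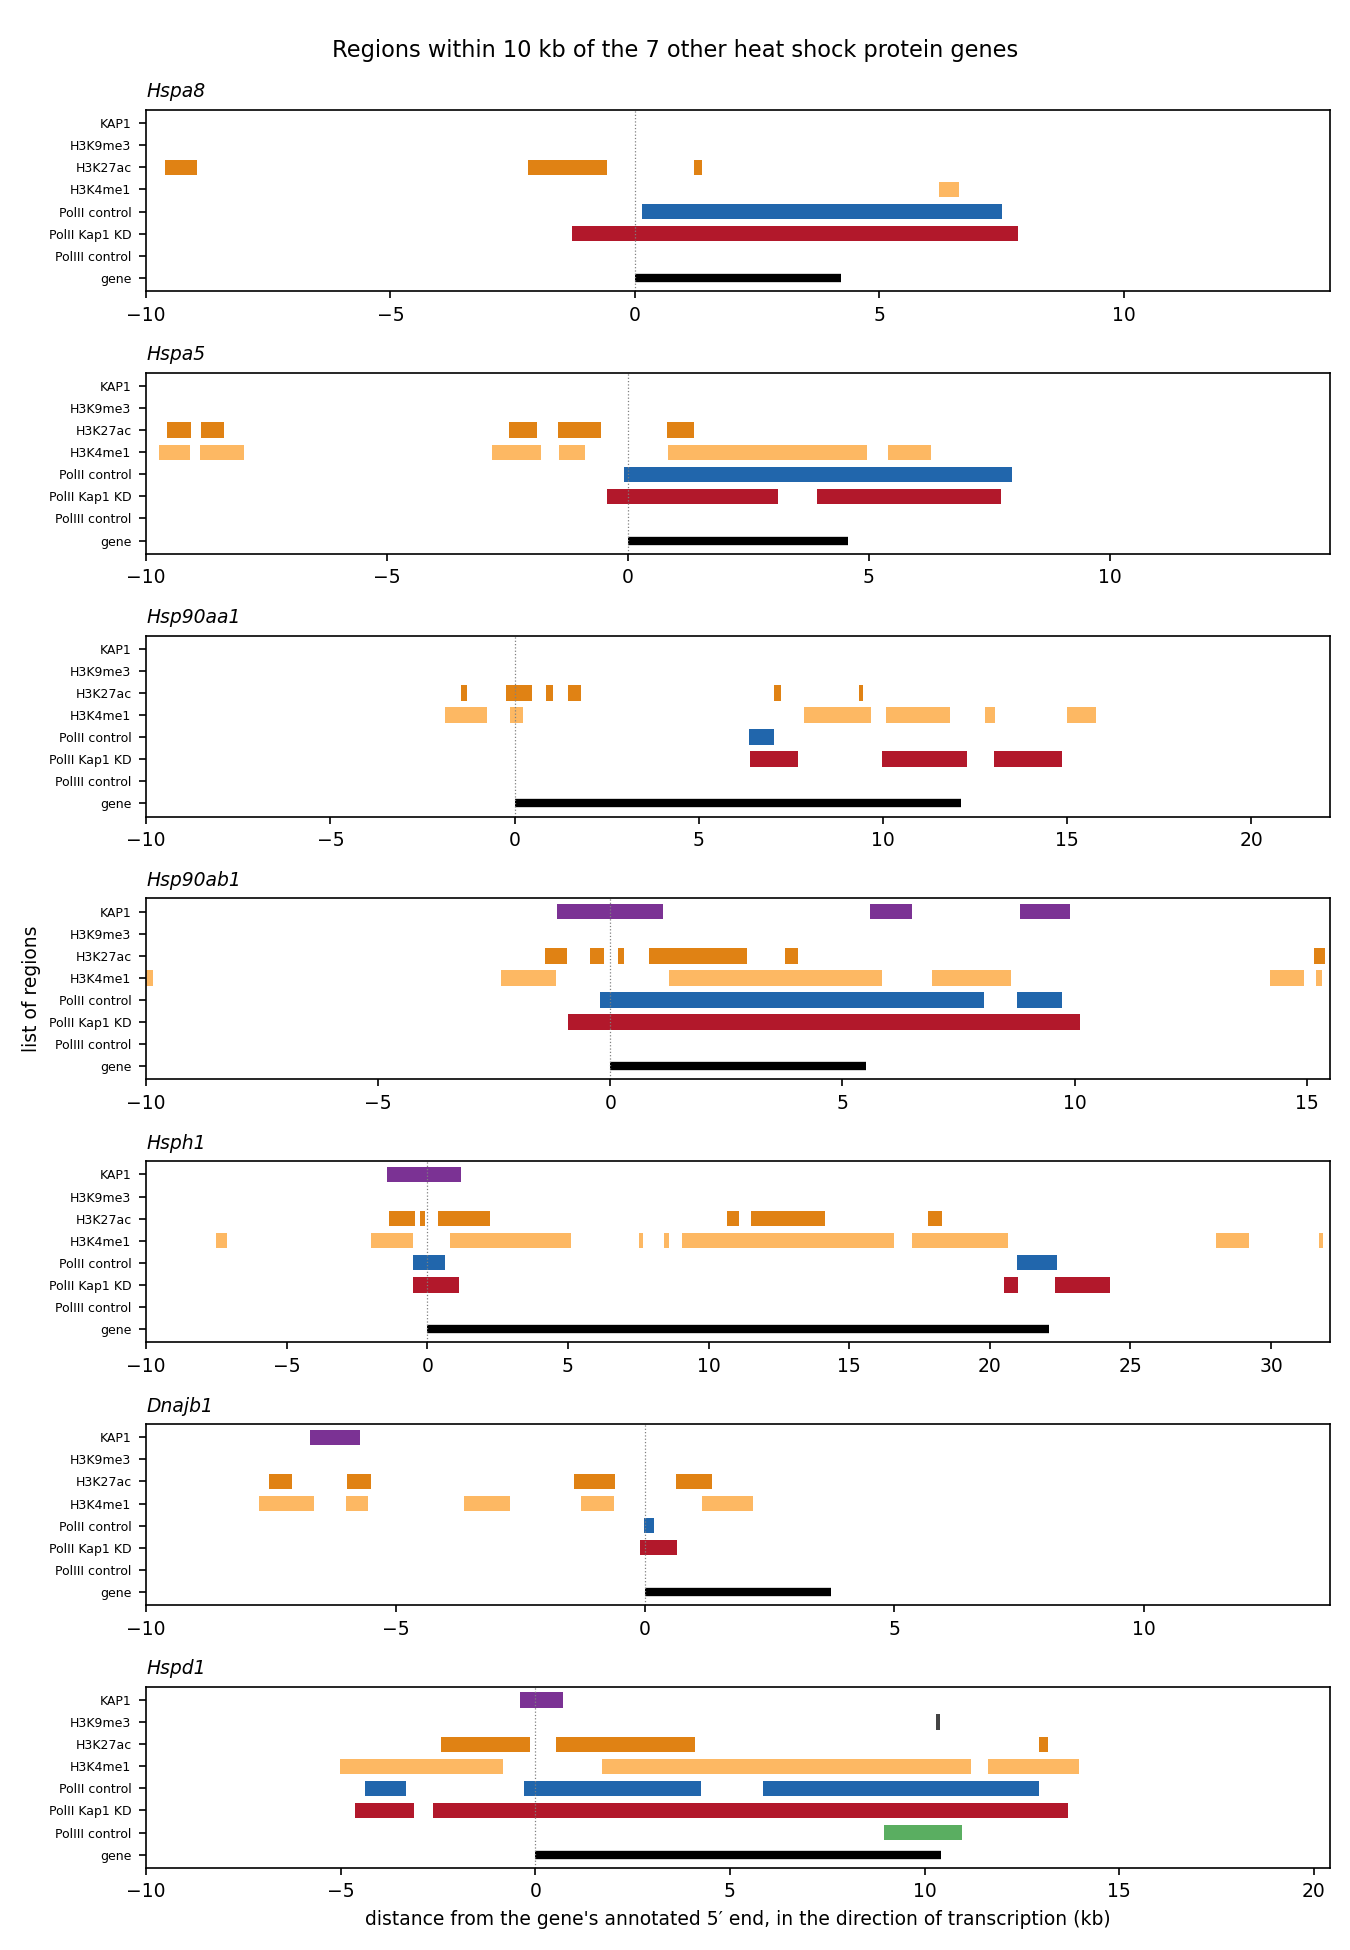
Regions of 7 lists (bars) within 10 kb of each of the 7 other heat shock protein genes, with distance from the annotated 5′ end in kb, positive in the direction of transcription, and the gene as a black line. KAP1 bars lie at the starts of Hsp90ab1, Hsph1 and Hspd1, H3K27ac bars lie near each start, and H3K9me3 appears only as a 123 bp bar at the 3′ end of Hspd1.

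Over the gene from start to end, KAP1 was at 6 of 10 members (24.3% of all genes) and H3K9me3 at 4 (23.5%), the 3 Hspa1 genes and Hspd1. H3K27ac was at 7 (41.6%), H3K4me1 at 6 (50.8%), and PolII at 7 in the control (17.0%) and under Kap1 KD (30.0%). These 7 were all the members outside the Hspa1 cluster, Hspa8 being the one without H3K4me1. PolIII was at 1 of 10 in the control (3.55%) and at 0 under Kap1 KD (0.586%). Within 10 kb of the gene, all 10 members had H3K27ac (56.8%), H3K4me1 (63.9%) and PolII in the control (23.3%) and under Kap1 KD (39.0%). The Hspa1 genes thus had regions called for active marks and PolII within 10 kb but not over the genes. In the same window KAP1 was at 7 (34.9%), Dnajb1 being added, and H3K9me3 at 4 (36.8%). PolIII was at 1 in the control (5.88%) and at 0 under Kap1 KD (1.39%).

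The 250 bp promoter missed much of the H3K27ac of the active members, whose regions lay on the flanks of the start. In a window of 1500 bp to each side, chosen after the distances were seen, all 7 members outside the cluster had H3K27ac and none of the 3 Hspa1 genes did, against 36.9% of all genes. The nearest H3K27ac region was 0 to 598 bp from the 5′ end in these 7. It was 8342 bp away at Hspa1a, 5662 bp at Hspa1b and 7763 bp at Hspa1l. Of all genes, 42.6% to 45.8% had H3K27ac at or within these last 3 distances, and the median distance over all genes was 12500 bp, so the Hspa1 genes were farther than the 7 other members but nearer than the median gene.

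**Figure D4:**
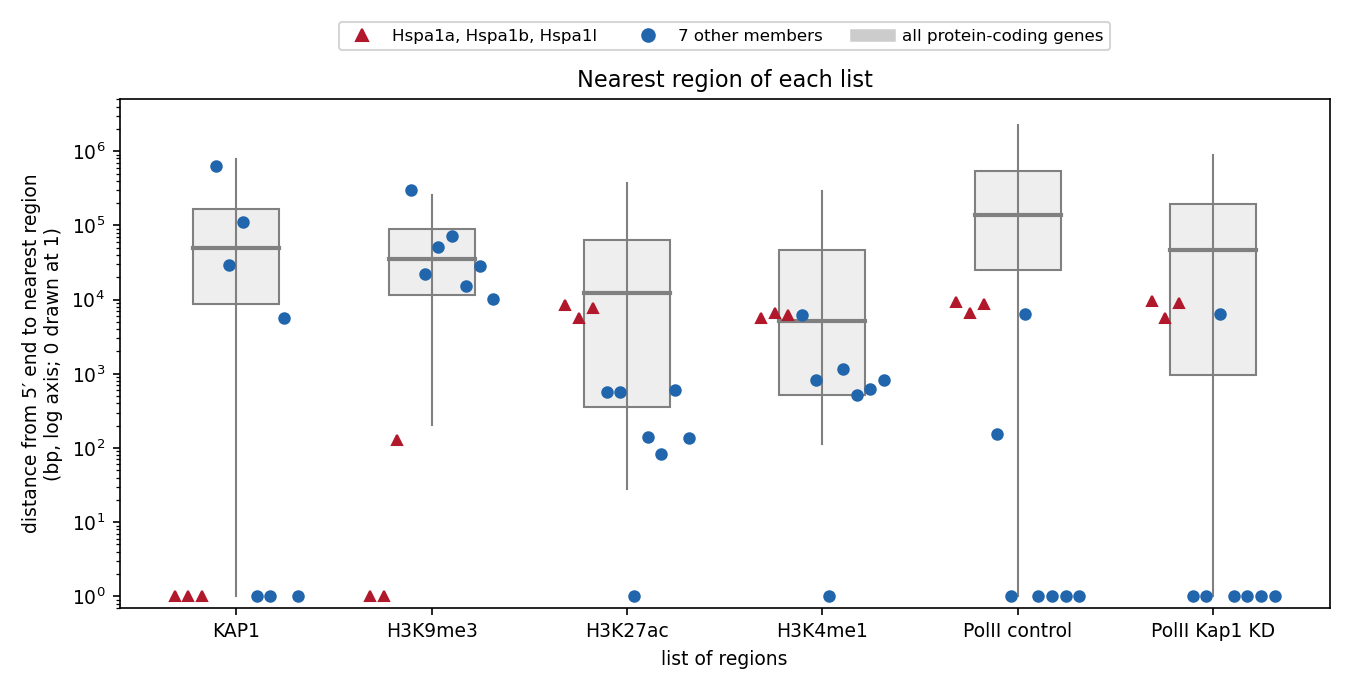
Distance from each 5′ end to the nearest region in bp on a log axis (0 drawn at 1), for 6 lists. Triangles are the 3 Hspa1 genes, circles the 7 other members, and grey boxes with lines the quartiles, median and 5th to 95th percentiles of all protein-coding genes. For H3K27ac the triangles sit above the circles, and for H3K9me3 they sit below them.

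PolII was compared between control and Kap1 KD by the bases its regions covered in the gene and 10 kb to each side, with 1 library on each side. The covered length was larger under Kap1 KD for 8 of 10 members. It went from 661 to 5437 bp around Hsp90aa1, from 204 to 733 bp around Dnajb1, from 12679 to 17825 bp around Hspd1, from 2529 to 4124 bp around Hsph1, from 9240 to 11033 bp around Hsp90ab1 and from 7363 to 9116 bp around Hspa8. Around Hspa5 it went from 8056 to 7363 bp. For the Hspa1 genes the covered bases belonged to the bordering genes, 5145 and 6538 bp around Hspa1b, 1157 and 1814 bp around Hspa1l, and 641 and 554 bp around Hspa1a. Hspa1l and Hspa1a were counted on the same bordering peaks. The Hspa1a window cut these peaks off, so its smaller value under Kap1 KD reflects the window edge. Among the 6 members with PolII at the promoter in both conditions the covered length was larger for 5, all but Hspa5. Over all 2777 such genes it was larger for 84.3%, with a median ratio of 1.52. Over all 22367 protein-coding genes, most of which had no PolII region in the control window, it was larger for 35.6%, and the median ratio was 1.60 among those with control cover. The Kap1 KD list held 12862 peaks and the control list 5015, the depth of neither library is known, and the part of depth in the wider cover was not tested.

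**Figure D5:**
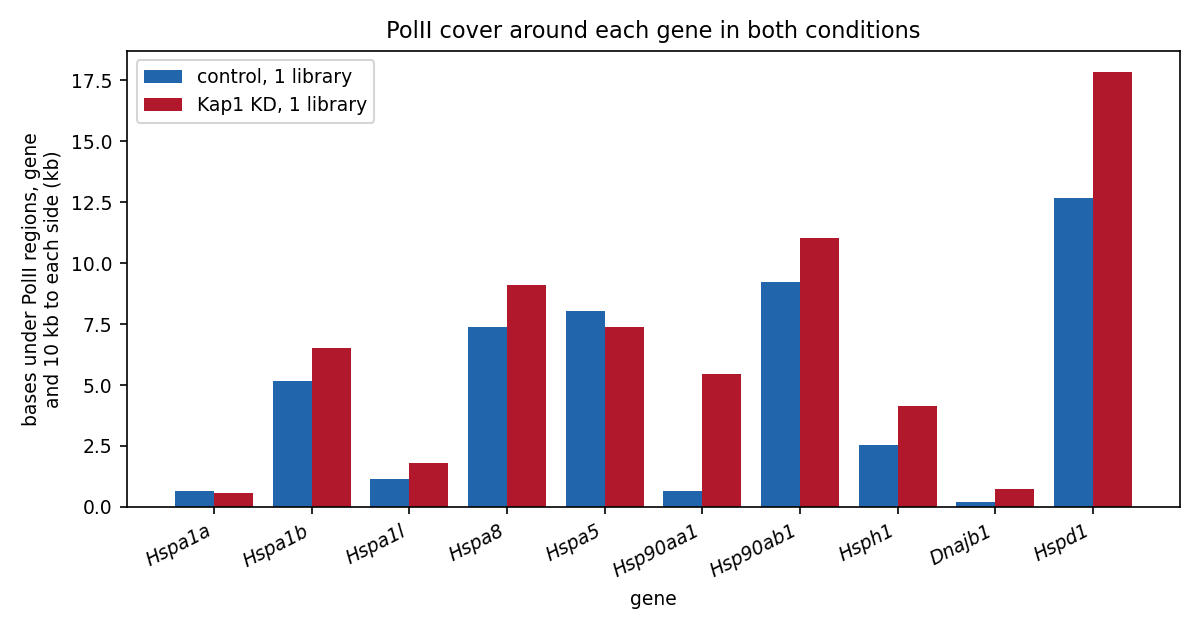
Bases under PolII regions in each gene and 10 kb to each side, in kb, for the control and the Kap1 KD library (1 bar each, no replicates). Bars are higher under Kap1 KD for 8 of 10 genes, not for Hspa1a and Hspa5, and those of the 3 Hspa1 genes come from bordering genes. The Hspa1a window cuts off the peaks that count in full for Hspa1l.

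The 107 other chaperone, co-chaperone and heat shock factor genes were counted in the same way. KAP1 was over the promoter of 34 (31.8%), against the 15.7% of all genes. H3K9me3 was over 3 (2.80%, against 5.24% of all genes), Dnajb3, Dnajc22 and Hspb1, the first and last being named after their values were seen. KAP1 with H3K9me3 was at 1 of 107, the J-domain gene Dnajc22, whose KAP1 peak scored 677.47 (rank 795) and which had none of the 6 other lists over the promoter. H3K27ac was over 33 promoters (30.8%, against 20.0% of all genes) and within 1500 bp of the 5′ end of 73, against 36.9% of all genes. H3K4me1 was over 14 (13.1%), near the 11.9% of all genes. PolII was over 30 in the control (28.0%, against 13.1%) and over 50 under Kap1 KD (46.7%, against 23.3%), so the count was larger under Kap1 KD here as it was over all genes.

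The counts by role are small and are to be read against the KAP1 share of 15.7% over all genes, near which those of the heat shock factors, HSP70 family, J-domain genes and small heat shock proteins lay. KAP1 was over 1 of 5 heat shock factor promoters, that of Hsf4, with a score of 864.99 (rank 599). PolII was over 0 of these 5 in the control and 2 under Kap1 KD, counts too small to set apart from the 13.1% and 23.3% of all genes. Of 9 other HSP70 family genes, 2 had KAP1 (Hspa4, of the HSP110 group, and Hspa9, the mitochondrial form). It was at 0 of 2 other HSP90 genes. It was at 8 of 39 J-domain genes, among them Dnaja1 and Dnajb4, which also had H3K27ac and PolII in both conditions, and Dnajb12, with PolII under Kap1 KD. Of 10 nucleotide exchange factors 5 had it (Bag1, Bag4 and Bag6 among them), and of 15 HSP90 co-chaperones 6 did (such as Cdc37l1, Chordc1 and Fkbp4). Among 9 small heat shock proteins it was at 1, Hspb6. Of 10 chaperonin genes, 6 had KAP1 and 8 had PolII in the control, among them Cct3, Cct4 and Cct5, subunits of the cytosolic chaperonin, each with H3K27ac. Of 8 endoplasmic reticulum chaperones, 5 had KAP1, among them Calr, Creld2 and P4hb.

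The cell line was checked by promoters of marker genes. Of 8 liver markers, 4 had H3K27ac over the promoter (Alb, Afp, Hnf4a and Foxa2), against 20.0% of all genes, and 1 had control PolII there, against 13.1%. The liver markers Apoa1, Apob, Ttr and Serpina1a had neither. Of 6 markers of other lineages, 1 had H3K27ac (Col1a1) and 0 had control PolII.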

How the data were processed

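Per the labels, each of 8 antibody and condition groups held 1 ChIP-seq library, and 5 input libraries were not analysed here. Per the methods of the study, the authors sequenced 100-base reads and mapped them with Bowtie to mm9. MACS with total input as control gave the KAP1 and PolII peaks, and ChIP-Part gave the histone regions. The PolIII caller and all options are not given in the sources used here. The deposited KAP1, PolII and PolIII lists give every peak a score, which the sources do not explain for the polymerases, and the histone lists the authors deposited hold positions only. PolII and PolIII peaks are numbered with gaps (22.6% to 55.0% of numbers missing), so calls had been removed before deposit. No file holds read counts, so the depth of each library and the precision of each value are unknown.

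Positions were read with Python 3.11.15, numpy 2.4.6 and pandas 2.3.3, counting from 1, against the NCBIM37 (mm9) assembly and GENCODE M1. No region ran past a chromosome end. Overlap meant 1 bp or more, and promoters were 250 bp to each side of the 5′ end, as in the study. Scores served only to rank peaks within a list. Repeated words were counted on both strands of the assembly, and coding sequences were aligned globally with Biopython 1.88. The overlap and word counts were tested on simulated data. No test was made, since each group had 1 library. Named genes were the members, genes within 10 kb of the Hspa1 cluster, other chaperone genes with KAP1 and H3K9me3 at the promoter, up to 3 per role with KAP1 in alphabetical order, and the 5 genes most like Hspa1a and Hspa1b. The members and lists were chosen with earlier results of these data known. Other promoter widths, any transcript start, stricter overlaps, median score or width, lists of equal length, other flanks and ranks by width were tried as alternatives.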

Additional observations from a re-analysis of the deposited data

How the results depend on the processing

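Every count rests on 1 library and on thresholds set by the authors, with depth unknown. No paired analysis was possible because each group held 1 library and no test was made. Of 153 alternatives, 111 stayed within 1.5 times the reported count (or, for a rank, within its 95% binomial interval) and 42 did not. That interval was only a yardstick and measures no error of a peak, and 16 of the 42 were ranks judged by it. The counts of members with KAP1, with H3K9me3 and with PolII over the promoter stayed within 1.5 times under every alternative run. So did the count with KAP1 and H3K9me3 together, which was 2 (Hspa1a and Hspa1b) at 100 bp to each side and with at least 0.5 of the promoter covered. The cause of the differences below was not tested.

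Members with H3K27ac over the promoter (4) were 2 at 100 bp to each side, 7 at 1 kb, at 1500 bp (chosen after seeing the data) and with any transcript start, 1 with at least 0.5 of the promoter covered, and 2 among regions of at least median width. With H3K4me1 (1) they were 5 at 1 kb, 3 with any transcript start and 0 at median width and above. With at least 0.5 of the gene covered, KAP1 was at 2 members, H3K9me3 at 2, H3K27ac at 0, PolII at 4 in each condition and control PolIII at 0. H3K9me3 was within 25 kb of 7 members. Apart from H3K27ac at 1500 bp (36.9% of all genes), no share of all genes is given under these settings. These counts therefore describe the members only.

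Of the 107 other chaperone genes, 20 had KAP1 peaks of at least the median score. H3K27ac was at 13 promoters at 100 bp, 69 at 1 kb, 4 with 0.5 or more covered and 19 at median width and above. H3K4me1 was at 3, 64, 3 and 9 in the same order, and at 26 with any transcript start. For these counts too, no share of all genes under the same setting is given.

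Ranked by width in place of score, the share of KAP1 peaks at or below the member's peak was 97.4% at Hspa1a, 97.0% at Hspa1b, 94.3% at Hsp90ab1, 96.3% at Hsph1 and 51.4% at Hspd1. For control PolII it was 97.3% at Hspa8, 97.8% at Hspa5, 97.9% at Hsp90ab1, 60.0% at Hsph1 and 4.43% at Dnajb1. For Kap1 KD PolII it was 98.8% at Hspa8, 92.7% at Hspa5, 99.3% at Hsp90ab1, 78.4% at Hsph1, 45.7% at Dnajb1 and 99.8% at Hspd1.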
